A study of Sus scrofa with 16 samples.

Results

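The livers of pigs fed either of a pair of saturated fats, beef tallow or coconut oil, were compared with the livers of pigs fed rapeseed oil. All 16 pigs of the series entered the comparison. Rapeseed oil was fed to 5 pigs (group R), beef tallow to 5 (group B) and coconut oil to 6 (group C), so that 11 of the 16 received a saturated fat. The pigs were crossbred, from (Polish Landrace x Polish Large White) sows and (Duroc x Pietrain) boars, housed in individual pens and fattened until they weighed 118 kg, having entered the trial at 60 kg, on feeds of similar energy and protein content that differed in the added fat. Group R held 3 females and 2 males, group B 2 females and 3 males, and group C 3 of each, and the study's methods call the males barrows. RNA of each liver was sequenced once from the 3′ ends of mRNA. The effect of the saturated fats was taken as the mean of the change in group B and the change in group C, both against group R, with equal weight for each fat. Every value of a change is thus set against the same 5 pigs of group R, and the presence of a saturated fat and the absence of rapeseed oil cannot be told apart in this design.

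The liver takes up dietary fatty acids, burns them in mitochondria, stores them as triglycerides or exports them in lipoproteins, and it turns cholesterol into bile acids. Cells that meet unfolded protein raise chaperones, with one set in the cytosol, led by the heat shock proteins, and another in the endoplasmic reticulum, led by HSPA5 (BiP). Fatty acids also act as signals, since several nuclear receptors of the liver bind them or their derivatives and set the genes of fat oxidation, fat synthesis and bile acid production. Tallow is rich in long-chain and coconut oil in medium-chain saturated fatty acids, and a gene that moved in the same direction with both was the object of the comparison.

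Each liver gave between 705669 and 1767671 reads on genes (median 1018321.5), and 6891 genes had enough reads to be tested. Beef tallow pig 3 lay far from all other pigs along the leading principal component, which carried 19.3% of the variance. The share of reads with several alignments, which count towards no gene, had medians of 26.5% (group R), 22.2% (group B) and 19.8% (group C), and it was highest in coconut oil pig 3, at 38.1%. With this share as a covariate, 13 of the genes described here still passed the threshold and no others did. Among the 13 were EGFR, HSPA8, BAG3, HSPA5, HSD3B1, FAM81A, ANPEP, ZBTB16, RPS29 and GCLC. The calls of 23 genes were lost, and the part of this share in them was not tested further. The 10 hepatocyte markers found in the annotation summed to between 92810 and 213000 CPM (reads scaled to the library's total on genes) in every pig, while markers of pancreatic acinar cells summed to at most 1.14 CPM.

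In the mean of both fats the cytosolic chaperone genes HSPA8 and BAG3, the growth factor receptor EGFR and the chaperone HSPA5 rose, and the steroid enzyme HSD3B1 and the little-studied gene FAM81A fell. These 6 genes had the smallest adjusted p-values and were the ones that passed the threshold with every pig left out in turn. In all, 36 genes passed an adjusted p of 0.05 in edgeR's quasi-likelihood test (p-values adjusted after Benjamini and Hochberg over all genes tested, below the edgeR adjusted p), which is 0.522% of the genes tested. Of these, 20 were higher (0.29%) and 16 were lower (0.232%) with the saturated fats. The log2 fold changes of the higher genes lay between 0.66 and 2.15, and those of the lower genes between -1.58 and -0.58. An unadjusted p below 0.05 was found for 961 genes (13.9%), 510 higher (7.4%) and 451 lower (6.54%).

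The changes with each fat were set side by side for the 36 genes. Since the mean contrast favours genes that both fats move one way, and both changes share the pigs of group R, nothing is read from their agreement in sign. A gene was called alike where each fat alone had an unadjusted p below 0.05 in the same direction and the fats did not differ at that level, and 23 of the 36 genes were alike, 15 higher and 8 lower. Alike thus means that no difference was detected, which does not show equal changes. In BHMT2, one of the alike genes, group C minus group B was 0.52 (95% interval from -0.01 to 1.04). Another 12 genes, 5 higher and 7 lower, moved in the same direction with each fat but by unequal amounts, and CYP7A1 alone rested mainly on beef tallow. The change was larger with beef tallow in 33 of the 36 genes and larger with coconut oil in UBL5, IYD and CTBP1. The median ratio of the log2 fold change in group C to that in group B was 0.726, with a range from 0.198 for CYP7A1 to 2.07 for UBL5. Groups B and C differed with an unadjusted p below 0.05 in 13 of the 36 genes, against 12.5% of all genes tested. Since the 36 genes were chosen by their p in the same fit, nothing is read from this share. The smallest edgeR adjusted p of that difference among the 36 was 0.0566, for CYP7A1.

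**Figure D1:**
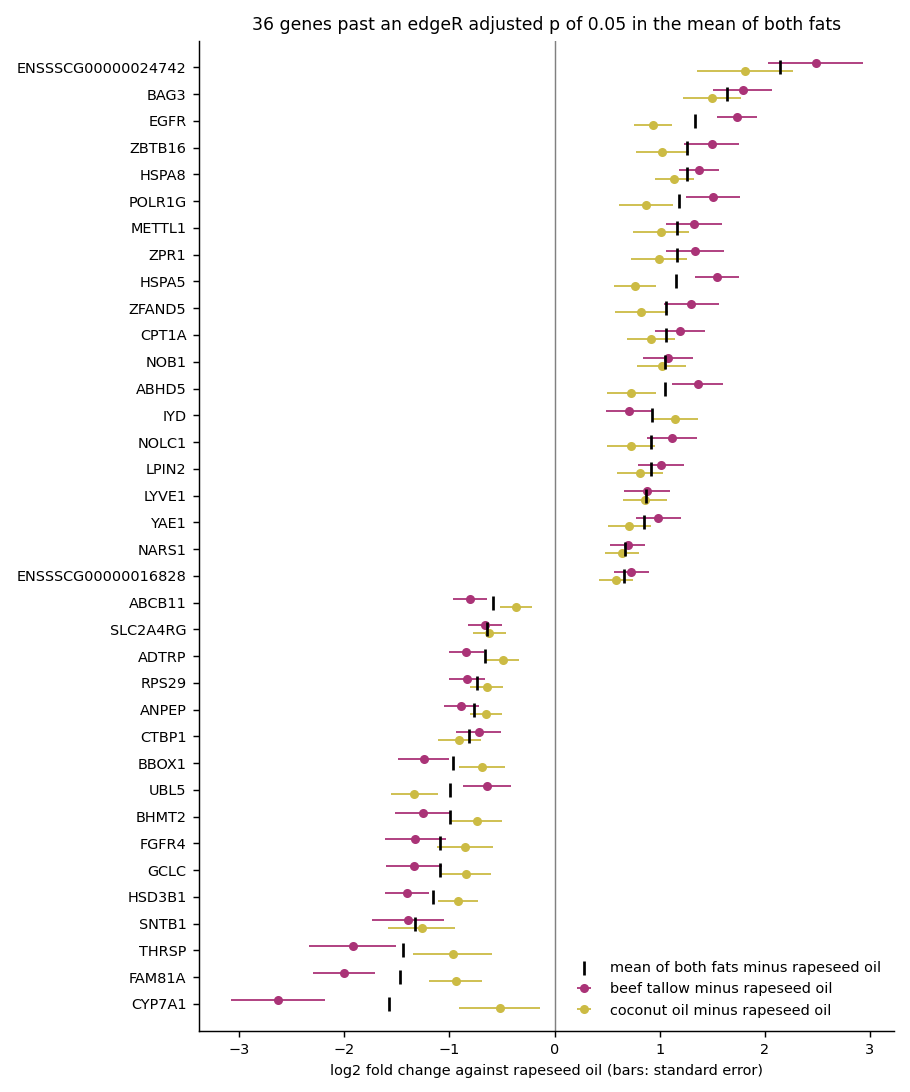
Log2 fold change against rapeseed oil (horizontal axis) of the 36 genes past an edgeR adjusted p of 0.05, with beef tallow in purple and coconut oil in yellow, bars for the standard error and black ticks for the mean of both fats. Both points lie on the same side of 0 for every gene, and the yellow point is the nearer to 0 in 33 of them.

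Taken one fat at a time in the same fit, 92 genes (1.33%) passed the edgeR adjusted p of 0.05 with beef tallow and 6 genes (0.0871%) with coconut oil. Of the 36 genes of the mean contrast, 33 were among those of beef tallow and 5 among those of coconut oil, namely EGFR, HSPA8, BAG3, UBL5 and IYD. Left-out pigs moved both counts, to between 32 (without rapeseed oil pig 3) and 132 (without beef tallow pig 3) for beef tallow, and to between 0 (without rapeseed oil pig 1 or coconut oil pig 5) and 22 (without beef tallow pig 3) for coconut oil. The strictest question, whether both fats moved a gene, was put by adjusting the larger of each gene's 2 p-values over all genes. By this measure 1 gene of 6891 passed (0.0145%), HSPA8, with an edgeR adjusted p of 0.0215, and the next were BAG3 with 0.061 and EGFR with 0.0797. No gene passed it without rapeseed oil pig 1 or 5, beef tallow pig 2, or coconut oil pig 2, 4 or 5, while 2 genes passed without beef tallow pig 4 and 3 without rapeseed oil pig 4 or beef tallow pig 3. Without adjustment, 301 genes (4.37%) had the same sign and a p below 0.05 with both fats, 178 higher (2.58%) and 123 lower (1.78%).

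HSPA8 (ENSSSCG00000015140, chromosome 9 from 49982278 to 49986760) encodes HSC70, the constitutive cytosolic chaperone that folds new proteins and strips clathrin from vesicles. In pigs 1 to 5 of group R it lay at 156, 191, 188, 147 and 114 CPM after TMM normalization, in pigs 1 to 5 of group B at 404, 407, 291, 482 and 483 CPM, and in group C between 279 and 448 CPM with a median of 332. All 11 pigs on a saturated fat lay above all 5 pigs on rapeseed oil. The log2 fold change was 1.26 (standard error 0.17, 2.39-fold, edgeR adjusted p = 0.000779), with 1.38 for beef tallow and 1.14 for coconut oil. Group C minus group B was -0.24 (95% interval from -0.60 to 0.13).

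BAG3 (ENSSSCG00000010686, chromosome 14 from 129510240 to 129533998) encodes a co-chaperone that couples HSP70 proteins to selective autophagy and is a classic target of the heat shock factor. It stood at 155, 171, 132, 231.8 and 117 CPM in group R, at 646, 588, 232.4, 942 and 388 CPM in group B, and between 359 and 586 CPM in group C (median 409). The groups did not overlap, but beef tallow pig 3 lay only just above the highest pig of group R. The log2 change against group R was 1.64 (standard error 0.26, 3.12-fold, edgeR adjusted p = 0.00275), with 1.79 for beef tallow and 1.50 for coconut oil, and the fats differed by -0.29 (95% interval from -0.83 to 0.25).

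Of the list of cytosolic heat shock chaperones and co-chaperones, 28 members were tested, and most had higher values with the saturated fats. HSPA8 and BAG3 passed, and 10 members were higher at an unadjusted p below 0.05, against 7.4% of all genes. With both fats at once 9 were higher at that level, against 2.58% of all genes. The study had already named HSPA8 and BAG3 as raised in these pigs, so these counts are no independent support. No member was lower at that level, and 24 of the 28 had a log2 fold change above 0. The median log2 fold change was 0.25, with 0.38 for beef tallow and 0.22 for coconut oil, beside 0.0048 over all genes tested. Summed over the 38 members found in the annotation (CPM without TMM scaling, as for the markers), group R lay between 3422 and 4484 CPM, group B between 4571 and 5742 and group C between 4338 and 5914, so that groups R and B did not overlap and group C overlapped group R slightly. Among the members that did not pass were FKBP4, a partner of HSP90, at 0.83 (edgeR adjusted p = 0.141), HSPH1, a nucleotide exchange factor of HSP70, at 0.70 (edgeR adjusted p = 0.113), and HSP90AA1, the inducible HSP90, at 0.44 (edgeR adjusted p = 0.144).

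**Figure D2:**
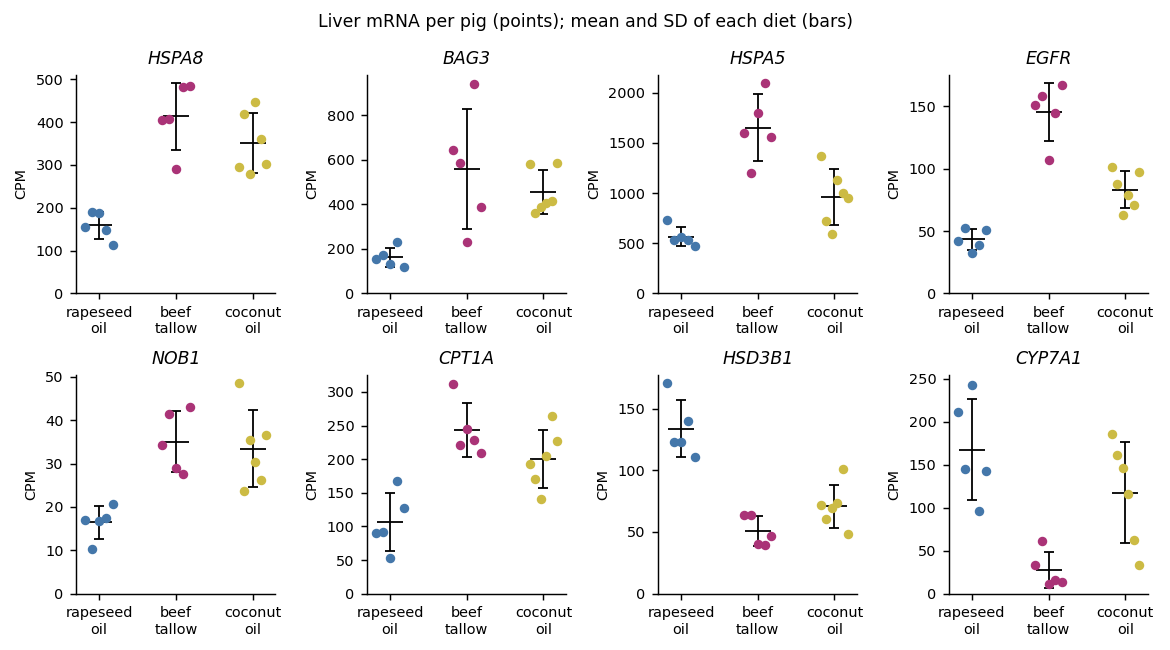
Normalized CPM (vertical axes) of 8 genes in each pig (points), by diet, with the mean and SD of each diet (bars). The 5 rapeseed oil pigs lie below all 11 others for HSPA8, BAG3, EGFR and NOB1 and above all of them for HSD3B1. HSPA5 and CPT1A overlap in a few coconut oil or rapeseed oil pigs, and for CYP7A1 the coconut oil pigs reach from 33.8 to 186 CPM.

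EGFR (ENSSSCG00000022126, chromosome 9 from 139302410 to 139474632), the receptor of epidermal growth factor and an abundant receptor of hepatocytes, had the smallest edgeR adjusted p of the mean contrast. It lay at 41.9, 52.3, 32.3, 39.1 and 51.1 CPM in group R, at 151, 158, 107, 144 and 167 CPM in group B, and between 63.2 and 101 CPM in group C (median 83.2). The groups were ordered without overlap, R below C below B. The mean log2 change was 1.34 (standard error 0.17, 2.53-fold, edgeR adjusted p = 0.000461), with 1.74 for beef tallow and 0.94 for coconut oil, and the fats differed by -0.80 (95% interval from -1.15 to -0.45, edgeR adjusted p = 0.0624). Of the 10 growth factor receptors tested, 7 had a log2 fold change below 0, and the median was -0.24. EGFR and FGFR4 were the ones that passed, FGFR4 as a lower gene, and DESeq2 called EGFR but gave FGFR4 no adjusted p.

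FGFR4, the hepatocyte receptor through which the gut hormone FGF19 restrains bile acid synthesis, lay at 25, 41, 14.2, 25.8 and 27.5 CPM in group R, at 13, 9.55, 9.19, 15.9 and 5.53 CPM in group B, and between 10.8 and 19.3 CPM in group C (median 15.4). Rapeseed oil pig 3 fell within the range of the saturated fats. On the log2 scale the change was -1.09 (standard error 0.24, edgeR adjusted p = 0.0338), with -1.32 for beef tallow and -0.85 for coconut oil, and the call held in 8 of the 16 fits that left out 1 pig. The call was lost with the share of reads with several alignments as a covariate.

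HSPA5 (ENSSSCG00000005601, chromosome 1 from 265930044 to 265934959) encodes BiP, the main chaperone of the endoplasmic reticulum, which holds the unfolded protein response in check. It lay at 731, 531, 564, 532 and 474 CPM in group R, at 1601, 1205, 1803, 2101 and 1560.0 CPM in group B, and between 597 and 1366 CPM in group C (median 979). All of group B lay above group R, while 2 pigs of group C fell within the range of group R. As a log2 fold change this was 1.16 (standard error 0.18, 2.23-fold, edgeR adjusted p = 0.00335), with 1.54 for beef tallow and 0.76 for coconut oil. The fats differed by -0.78 (95% interval from -1.19 to -0.38, edgeR adjusted p = 0.107).

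The list of folding and unfolded protein response genes of the endoplasmic reticulum had 35 members tested, HSPA5 included. The study names HSPA5 and HYOU1 as higher with beef tallow in these pigs, so the counts of this list are no independent support. HSPA5 alone passed in edgeR, and DESeq2 called 3 higher. At an unadjusted p below 0.05, 10 were higher and 1 lower, against 7.4% and 6.54% of all genes. With both fats at once 3 were higher at that level, against 2.58%. The median log2 fold change was 0.08, with 0.24 for beef tallow and 0.04 for coconut oil. HYOU1, a large chaperone of the same compartment, had a log2 fold change of 1.23 with beef tallow and 0.25 with coconut oil, and MANF, a secreted stress protein, 1.03 and 0.12. TRIB3, a pseudokinase of the stress response, had 1.69 and 1.40 (edgeR adjusted p of the mean = 0.116).

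Several genes for making ribosomes and modifying RNA were higher with the saturated fats. NOB1 (chromosome 6 from 17233863 to 17245451), the nuclease that makes the last cut of 18S ribosomal RNA, lay at 16.9, 10.3, 16.8, 17.5 and 20.6 CPM in group R, at 34.4, 41.4, 28.9, 27.6 and 43.1 CPM in group B, and between 23.7 and 48.5 CPM in group C (median 32.9). No pig on a saturated fat overlapped group R. The log2 fold changes were nearly the same with each fat, 1.08 for beef tallow and 1.02 for coconut oil, with a difference of -0.06 (95% interval from -0.50 to 0.38), and the mean was 1.05 (standard error 0.21, edgeR adjusted p = 0.0274).

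METTL1, the tRNA methyltransferase (named from the study's tables, since the annotation gives no symbol for ENSSSCG00000025027), lay between 5.13 and 10.3 CPM in group R, between 17 and 22.9 CPM in group B and between 11.3 and 21.8 CPM in group C, without overlap. Its log2 fold change was 1.17 (standard error 0.24, edgeR adjusted p = 0.0274). POLR1G, a subunit of RNA polymerase I, which transcribes ribosomal RNA, came to 1.19 on the log2 scale (edgeR adjusted p = 0.0229), with 1.50 for beef tallow and 0.87 for coconut oil, and 10 of the 11 pigs on a saturated fat lay above group R. NOLC1, a scaffold of the nucleolus, had 0.92 (edgeR adjusted p = 0.043), a call that held in 4 of the 16 fits.

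Of the 27 nucleolar and ribosome biogenesis factors tested, NOB1 and NOLC1 passed. The list holds genes that the study names as raised with beef tallow in these same pigs, NOB1 and NOLC1 among them. Its counts and median are therefore no independent support. At an unadjusted p below 0.05, 13 were higher, against 7.4% of all genes. With both fats at once 7 were higher at that level, against 2.58% of all genes. No member was lower at that level, and 26 of the 27 had a log2 fold change above 0. The median was 0.49, the highest of the 28 pathway lists, with 0.66 for beef tallow and 0.34 for coconut oil. Summed over the 35 members found in the annotation, group R lay between 1140 and 1477 CPM, group B between 1667 and 2451 and group C between 1112 and 1810, so that group C overlapped group R and group B did not. With the share of reads with several alignments as a covariate, no member passed, while with DESeq2 7 members passed.

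Among the ribosome's own proteins, the median lay near no change, with more members below 0 than above it. Of 41 cytosolic ribosomal proteins tested by the symbols of the annotation, none passed in edgeR, and DESeq2 called 1 lower. At an unadjusted p below 0.05, 1 was lower, against 6.54% of all genes. The log2 fold change was below 0 in 28 and above 0 in 13, with a median of -0.07. RPS29, a small-subunit protein matched only through the study's tables (ENSSSCG00000039388), lay at 472, 543, 553, 509 and 724 CPM in group R, at 362, 312, 268, 292 and 335 CPM in group B, and between 280.4 and 467 CPM in group C (median 345). The ranges did not overlap, though coconut oil pig 1 came close to the lowest pig of group R. Its log2 fold change was -0.74 (standard error 0.14, edgeR adjusted p = 0.0201), and since ribosomal protein genes have many near-identical copies this value is uncertain.

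Of the 28 translation factors tested, none passed in edgeR, and DESeq2 called 2 higher. At an unadjusted p below 0.05, 4 were higher and 2 lower, against 7.4% and 6.54% of all genes. The nearest were EIF3A, the largest subunit of the initiation factor eIF3, at 0.57 (edgeR adjusted p = 0.0583), and EIF5B, which joins the ribosomal subunits, at 0.57 (edgeR adjusted p = 0.0657). Each had almost the same value with both fats, 0.60 and 0.55 for EIF3A and 0.56 and 0.58 for EIF5B. NARS1, the cytosolic asparaginyl-tRNA synthetase, did pass, with a log2 difference of 0.67 against group R (edgeR adjusted p = 0.0394) and 0.69 and 0.64 for the fats, a call that held in 3 of the 16 fits.

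**Figure D3:**
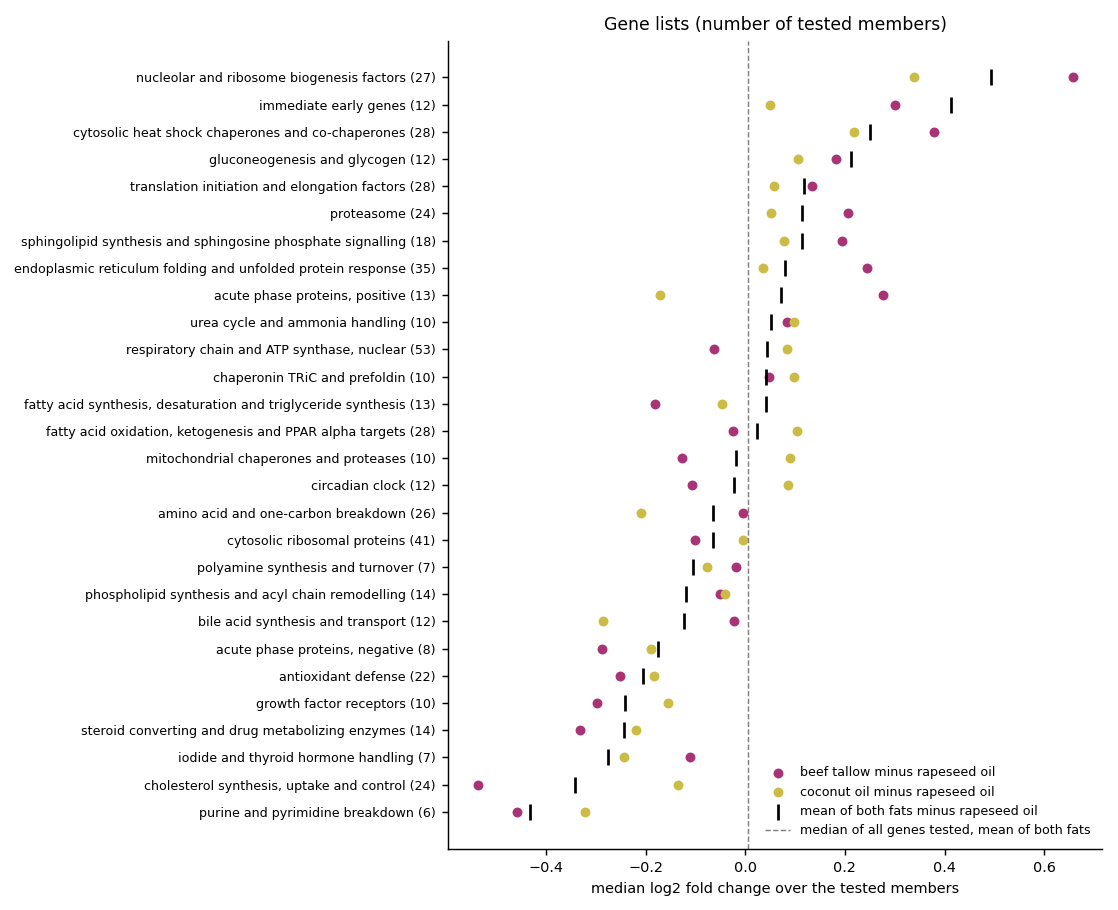
Median log2 fold change against rapeseed oil (horizontal axis) over the tested members of 28 pathway lists, for the mean of both fats (black), beef tallow (purple) and coconut oil (yellow), with the median of all genes as a dashed line. Nucleolar factors have the highest median, 0.49, and purine and pyrimidine breakdown the lowest, -0.43.

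CPT1A (ENSSSCG00000012880, chromosome 2 from 4250642 to 4293914), the gatekeeper that links long-chain fatty acids to carnitine, lay at 90.5, 92.3, 53, 168 and 127 CPM in group R, at 312, 222, 246, 228 and 209 CPM in group B, and between 140.4 and 264 CPM in group C (median 199). Rapeseed oil pig 4 reached into the range of group C, and otherwise the saturated fats lay higher. The log2 fold change was 1.06 (standard error 0.21, 2.08-fold, edgeR adjusted p = 0.0229), with 1.20 for beef tallow and 0.92 for coconut oil, and the fats differed by -0.28 (95% interval from -0.73 to 0.17).

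CPT1A was the single member that passed of 28 genes of fatty acid oxidation, ketogenesis and PPAR alpha targets tested. With the share of reads with several alignments as a covariate, no member passed. At an unadjusted p below 0.05, 5 members were higher and none was lower, against 7.4% and 6.54% of all genes. The median log2 fold change of the list was 0.02. PPARGC1A, a coactivator of oxidative genes, had a log2 difference of 0.60 against group R (edgeR adjusted p = 0.205).

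ABHD5, the coactivator of the triglyceride lipase ATGL, lay at 112, 115, 128, 169 and 82.6 CPM in group R, at 301, 325, 185, 484 and 266 CPM in group B, and between 134 and 288 CPM in group C (median 198). Coconut oil pig 4 fell within group R. The log2 change against group R was 1.05 (standard error 0.21, edgeR adjusted p = 0.0274), with 1.36 for beef tallow and 0.73 for coconut oil. LPIN2, a lipin that makes diacylglycerol for triglyceride synthesis, did not overlap between groups, at 83.9 to 169 CPM in group R and 174 to 309 CPM over the saturated fats, with a log2 difference of 0.91 against group R (standard error 0.20, edgeR adjusted p = 0.0338).

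THRSP, a nuclear protein that goes with the synthesis of fatty acids, moved the other way. It lay at 88.3, 154, 163, 109 and 337 CPM in group R, at 42.8, 59.4, 24.3, 28.7 and 71.9 CPM in group B, and between 18.6 and 144 CPM in group C (median 86.9). All of group B lay below group R, while 4 pigs of group C lay below and 2 within it. The mean log2 change was -1.45 (standard error 0.33, edgeR adjusted p = 0.043), with -1.92 for beef tallow and -0.97 for coconut oil. Its call held in 7 of the 16 fits that left out 1 pig. Of 13 members of the list of fatty acid and triglyceride synthesis tested, LPIN2 and THRSP were the ones that passed, and the median was 0.04. Neither gene passed with the share of reads with several alignments as a covariate.

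BBOX1, the last enzyme of carnitine synthesis, fell in the mean of both fats, at 51.5, 34.9, 59.5, 58.7 and 48.2 CPM in group R, at 20.6, 30.8, 17.7, 26.6 and 11.06 CPM in group B, and between 21 and 37.9 CPM in group C (median 31.7). Group B lay below group R and group C overlapped its lowest pig. On the log2 scale the change was -0.97 (standard error 0.19, edgeR adjusted p = 0.0271), with -1.25 for beef tallow and -0.69 for coconut oil.

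HSD3B1 (named from the study's tables, ENSSSCG00000006719) belongs to the enzymes that convert steroid hormone precursors, a family with close copies, so the identity of the counted copy is uncertain. It lay at 171, 123, 123, 140.1 and 111 CPM in group R, at 63.4, 63.7, 40.0, 39.3 and 46.5 CPM in group B, and between 48.4 and 101 CPM in group C (median 70.7). All 11 pigs on a saturated fat lay below all 5 on rapeseed oil. As a log2 fold change this was -1.16 (standard error 0.17, 2.23-fold lower, edgeR adjusted p = 0.0014), with -1.40 for beef tallow and -0.92 for coconut oil, and the fats differed by 0.49 (95% interval from 0.07 to 0.90).

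FAM81A (ENSSSCG00000004586, chromosome 1 from 112548260 to 112677675), a gene of little-known function in liver, also separated the groups. It lay at 36.8, 21.5, 22, 26.8 and 39.3 CPM in group R, at 12.2, 7.43, 4.59, 4.25 and 7.74 CPM in group B, and between 12.3 and 20.2 CPM in group C (median 14.6). The log2 fold change was -1.47 (standard error 0.23, 2.77-fold lower, edgeR adjusted p = 0.00275), with -2.004 for beef tallow and -0.94 for coconut oil. DESeq2 gave this gene no adjusted p.

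Among the lower genes of amino acid and sulphur metabolism, GCLC (chromosome 7 from 27209565 to 27253535), the catalytic subunit of the rate-limiting enzyme of glutathione synthesis, lay at 43.4, 23.6, 44, 23.7 and 38.4 CPM in group R, at 9.93, 11.7, 17.1, 13.8 and 15.5 CPM in group B, and between 12.8 and 25.1 CPM in group C (median 21.7). Only coconut oil pig 1 reached into group R. The log2 change against group R was -1.09 (standard error 0.21, edgeR adjusted p = 0.0229), with -1.34 for beef tallow and -0.85 for coconut oil. Of 22 antioxidant genes tested GCLC was the one that passed, and 5 were lower and 1 higher at an unadjusted p below 0.05, against 6.54% and 7.4% of all genes. DESeq2 called 3 lower. The higher one was GCLM, the modifier subunit of the same enzyme, at 0.47 (edgeR adjusted p = 0.324).

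BHMT2 (named from the study's tables), a methyltransferase that makes methionine from homocysteine, had a log2 difference of -0.998 against group R (standard error 0.21, edgeR adjusted p = 0.0328), with -1.26 for beef tallow and -0.74 for coconut oil. In group C, 5 pigs lay between 54 and 63.1 CPM and pig 3 at 119 CPM, within the 92.3 to 135 CPM of group R. Its close neighbour in sequence BHMT had -0.85 (edgeR adjusted p = 0.273), and reads that fit both were counted for neither. ANPEP, the aminopeptidase of the bile canaliculus, lay at 149.8 to 229 CPM in group R and 81.4 to 143 CPM over the saturated fats without overlap, with a log2 difference of -0.77 against group R (standard error 0.14, edgeR adjusted p = 0.0111).

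CYP7A1 (ENSSSCG00000006238, chromosome 4 from 74343101 to 74372628), the rate-limiting enzyme of bile acid synthesis, lay at 211, 145, 243, 96.8 and 143 CPM in group R, at 33.6, 61.5, 11.8, 15.9 and 13.3 CPM in group B, and between 33.8 and 186 CPM in group C (median 131). All of group B lay below group R, while 4 of the 6 pigs of group C lay within its range. The mean of both fats was -1.58 (standard error 0.34, edgeR adjusted p = 0.0338), made of -2.63 for beef tallow and -0.52 for coconut oil (edgeR adjusted p = 0.676). The fats differed by 2.11 (95% interval from 1.21 to 3.02, edgeR adjusted p = 0.0566).

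ABCB11, the pump that exports bile salts into bile, had a log2 difference of -0.58 against group R (standard error 0.13, edgeR adjusted p = 0.0464), with -0.80 for beef tallow and -0.37 for coconut oil. Its call held in 4 of the 16 fits that left out 1 pig. Rapeseed oil pig 4, at 378 CPM against 502 to 664 CPM in the other 4 pigs of its group, lay below every pig of group C. These were the members that passed of 12 genes of bile acid synthesis and transport tested. The median of the list was -0.12, with -0.02 for beef tallow and -0.29 for coconut oil, so that over the list the order of the fats was the opposite of that in CYP7A1 and ABCB11. Neither passed with the share of reads with several alignments as a covariate.

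Cholesterol synthesis, uptake and control had the lower values with beef tallow as well, with 0 of 24 members past the threshold in edgeR. At an unadjusted p below 0.05, 8 members were lower and none higher, against 6.54% and 7.4% of all genes, and DESeq2 called 2 lower. With both fats at once 1 member was lower at that level, against 1.78% of all genes. The study names FDFT1 and MVD as lower with beef tallow in these pigs, so the counts of this list are no independent support. The median log2 fold change was -0.34, with -0.54 for beef tallow and -0.14 for coconut oil, and 21 of the 24 members had a value below 0. FDFT1, which makes squalene, had a log2 difference of -1.13 against group R (edgeR adjusted p = 0.0545), with -1.80 for beef tallow and -0.46 for coconut oil, and MVD, an enzyme of the mevalonate pathway, -1.16 (edgeR adjusted p = 0.0971), with -1.81 and -0.51.

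UBL5 and IYD had the larger change with coconut oil. UBL5 (chromosome 2 from 68702478 to 68708012), a ubiquitin-like protein of splicing and of the mitochondrial stress response, lay at 94.9, 84.1, 84, 106 and 99.3 CPM in group R, at 66.5, 38.2, 53.2, 64.8 and 77.4 CPM in group B, and between 26.7 and 64.1 CPM in group C (median 30.7). The saturated fats lay wholly below rapeseed oil. The mean log2 change was -0.99 (standard error 0.19, edgeR adjusted p = 0.0229), with -0.64 for beef tallow and -1.34 for coconut oil, and the fats differed by -0.69 (95% interval from -1.16 to -0.22).

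IYD (chromosome 1 from 15756536 to 15779380), which recovers iodide from iodotyrosines, lay at 207, 131, 144, 217 and 129 CPM in group R, at 269, 252, 150.3, 337 and 349.5 CPM in group B, and between 290.0 and 481 CPM in group C (median 348). Beef tallow pig 3 alone fell within group R. On the log2 scale the change was 0.93 (standard error 0.20, edgeR adjusted p = 0.0328), with 0.71 for beef tallow and 1.15 for coconut oil. The difference between the fats was 0.44 (95% interval from 0.00 to 0.87).

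**Figure D4:**
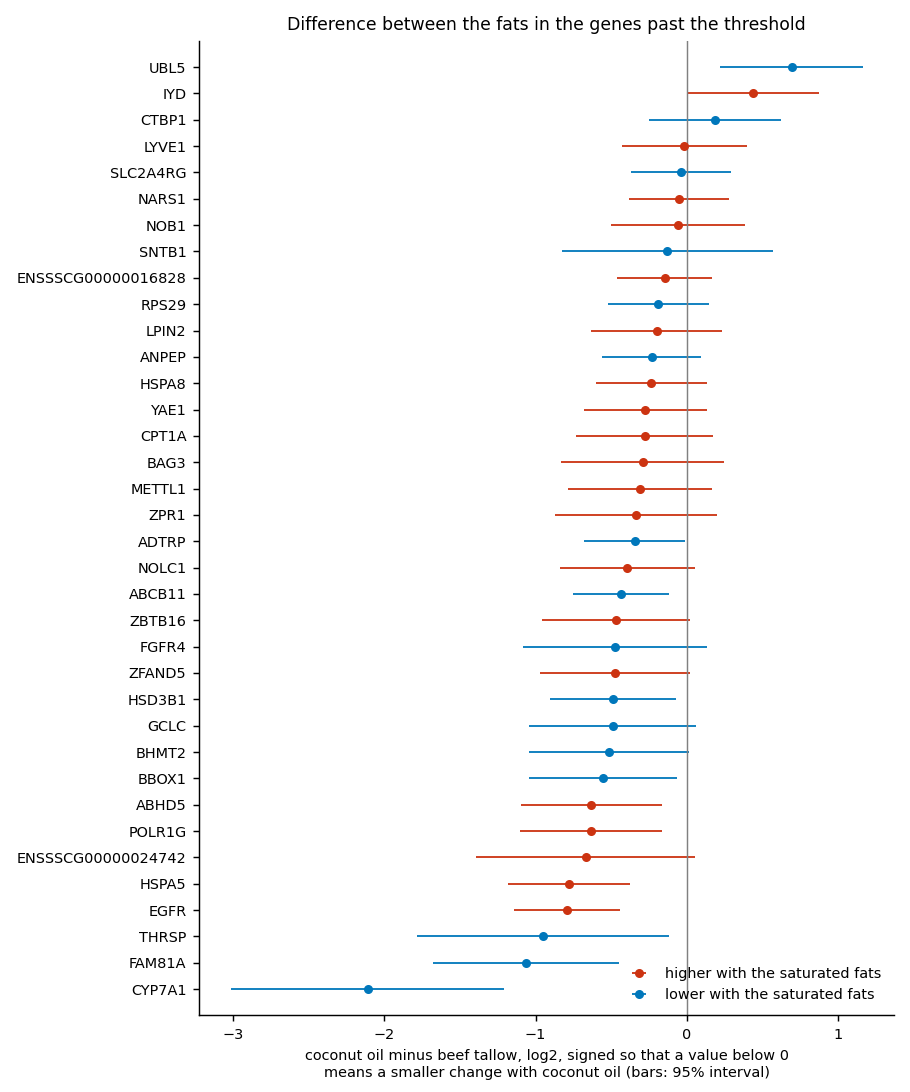
Coconut oil minus beef tallow (log2, horizontal axis) in the 36 genes, with 95% intervals and with the sign set so that a value below 0 is a smaller change with coconut oil. Red marks genes higher and blue genes lower with the saturated fats, and the intervals of CYP7A1, FAM81A, EGFR and HSPA5 lie wholly below 0 while those of UBL5 and IYD lie above it.

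LYVE1 (chromosome 2 from 48937357 to 48954206), a hyaluronan receptor of the sinusoidal endothelium, was the called gene with the closest values for both fats, 0.88 for beef tallow and 0.86 for coconut oil. It lay at 30.9, 44.1, 29.7, 29.9 and 31.5 CPM in group R, at 64.2, 42.4, 59.1, 68 and 71.9 CPM in group B, and between 44.7 and 93 CPM in group C (median 54.2). Rapeseed oil pig 2 was high in its group and lay above beef tallow pig 2, with no other overlap. As a log2 fold change this was 0.87 (standard error 0.19, edgeR adjusted p = 0.0394), with a call in 7 of the 16 fits. LYVE1 did not pass with the share of reads with several alignments as a covariate. In whole liver, more cells of a type and more RNA per cell cannot be told apart. The 4 endothelial markers tested had a median of 0.25, and the 6 found in the annotation summed to 273.6 to 424.4 CPM in group R, 374.2 to 433.5 in group B and 328.3 to 424.1 in group C.

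S1PR1, the receptor of sphingosine phosphate on endothelial cells, had a log2 difference of 0.84 that missed the threshold against group R (edgeR adjusted p = 0.0636), with 0.87 for beef tallow and 0.82 for coconut oil. Of the markers of Kupffer cells, 8 were tested and none passed in edgeR, and DESeq2 called 1. At an unadjusted p below 0.05, 1 was higher, against 7.4% of all genes. Over the 9 of these markers found in the annotation, the summed level lay between 619.2 and 1170 CPM in group R, 860.8 and 1788 in group B and 621.1 and 883.2 in group C.

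ZBTB16 (chromosome 9 from 41639536 to 41839254), a transcription factor that glucocorticoids induce, lay at 24.3, 41, 28.4, 74.2 and 30.5 CPM in group R, at 102, 114, 73.5, 144 and 127 CPM in group B, and between 64.8 and 109 CPM in group C (median 79.4). The overlap came from rapeseed oil pig 4. The log2 fold change was 1.26 (standard error 0.23, edgeR adjusted p = 0.0185), with 1.49 for beef tallow and 1.02 for coconut oil.

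ZPR1, a zinc finger protein that binds growth factor receptors and translation elongation factor 1A, was the most abundant of the alike genes. It lay at 1018, 808, 659, 1062 and 216 CPM in group R, at 1606, 1896, 1415, 2392 and 2186 CPM in group B, and between 1311 and 1712 CPM in group C (median 1492). No pig on a saturated fat lay within group R, where pig 5 was far below the other 4. The log2 change against group R was 1.17 (standard error 0.25, edgeR adjusted p = 0.0328), and 0.92 at the lowest with 1 pig left out. Its call held in 9 of the 16 fits that left out 1 pig.

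The remaining higher genes were ZFAND5, a ubiquitin-binding activator of the proteasome (1.06), YAE1, a factor of iron-sulphur protein assembly (0.85), and 2 genes without a name, ENSSSCG00000024742 (2.15) and ENSSSCG00000016828 (0.66). The first of these unnamed genes lay between 1.03 and 5.88 CPM in group R and between 6.11 and 31.9 CPM over the saturated fats, so few reads carry its large fold change. With 1 pig left out, the call of YAE1 held in 5 of the 16 fits and that of ENSSSCG00000016828 in 4. The remaining lower genes were SNTB1, a scaffold of the dystrophin complex (-1.33), CTBP1, a transcriptional corepressor (-0.81), ADTRP, a lipid hydrolase (-0.67), and SLC2A4RG, a regulator of the glucose transporter gene SLC2A4 (-0.64). SLC2A4RG had the more even values of these, -0.66 for beef tallow and -0.62 for coconut oil.

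In 15 of the 36 genes, 9 higher and 6 lower, the 11 pigs on a saturated fat and the 5 on rapeseed oil did not overlap. Over all genes tested this was so for 21 genes (0.305%), 13 higher (0.189%) and 8 lower (0.116%), and since the threshold favours separated groups nothing is read from the share among the 36. The higher ones were EGFR, HSPA8, BAG3, NOB1, METTL1, ZPR1, LPIN2 and both genes without a name. The lower ones were HSD3B1, FAM81A, ANPEP, RPS29, UBL5 and CTBP1.

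In the list of iodide and thyroid hormone handling IYD passed, but not with the share of reads with several alignments as a covariate. The other 16 pathway lists held no gene past the threshold in edgeR. Their counts at an unadjusted p below 0.05 stand beside 7.4% higher and 6.54% lower among all genes tested. Purine and pyrimidine breakdown had the lowest median, -0.43, with 4 of 6 tested members lower at an unadjusted p below 0.05 in edgeR, 3 called lower by DESeq2 and 1 by limma voom. Its nearest member was DPYS, the dihydropyrimidinase, at -0.89 (edgeR adjusted p = 0.0894), with -1.20 for beef tallow and -0.58 for coconut oil. Of 26 genes of amino acid and one-carbon breakdown, 7 were lower and 1 higher at an unadjusted p below 0.05, and DESeq2 called 1 lower. The median of the 12 immediate early genes was 0.41, with 4 higher at an unadjusted p below 0.05 and 1 called by DESeq2, and JUN had 0.61 with beef tallow and 0.62 with coconut oil (edgeR adjusted p of the mean = 0.133). The positive acute phase proteins had medians of opposite sign, 0.28 with beef tallow and -0.17 with coconut oil, with 1 of 13 members higher at an unadjusted p below 0.05 and none called by DESeq2.

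In the urea cycle 3 of 10 tested genes were higher and 2 lower at an unadjusted p below 0.05, and DESeq2 called 2 in each direction. Among all genes, 7.4% were higher and 6.54% lower at that level, which applies to each list of this paragraph. Of 8 negative acute phase proteins, 2 were lower at that level, and DESeq2 called 2 lower. Of 10 mitochondrial chaperones and proteases, 1 was higher and 2 were lower, and DESeq2 and limma voom each called 1 higher. DESeq2 also called 1 higher gene among 18 of sphingolipid metabolism (2 higher at an unadjusted p below 0.05), 1 higher among 53 of the respiratory chain (3 higher and 1 lower) and 1 lower among 14 steroid and drug enzymes (1 higher and 3 lower). It called none in the lists of chaperonins, phospholipids, polyamines, gluconeogenesis, the circadian clock and the proteasome, where 2, 1, 0, 3, 5 and 1 genes were higher and 0, 0, 1, 2, 2 and 0 lower at an unadjusted p below 0.05. These lists had 10, 14, 7, 12, 12 and 24 tested genes, in the same order.

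Whether the effect of the saturated fats differed between males and females was tested with each sex of each diet as its own mean. By edgeR 0 genes passed, with 274 at an unadjusted p below 0.05 and a smallest adjusted p of 0.782, and DESeq2 also called 0. Without rapeseed oil pig 3, 1 gene passed, and without beef tallow pig 1, 3 genes. Of the 36 genes, ZPR1 and ZBTB16 had an unadjusted p below 0.05 in this test. Groups of 2 or 3 pigs leave little precision for it.

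The number of genes called depended on single pigs. The median over the 36 genes was a call in 12 of the 16 fits that left out 1 pig. Besides the genes for which this is given above, the call held in 9 of the 16 fits for BHMT2, CYP7A1, IYD and CTBP1. It held in 8 for LPIN2 and ZFAND5. Without rapeseed oil pig 5, 1, 3 or 2, only 7, 10, 10 and 23 genes passed, and without coconut oil pig 4 or 6, 19 and 21 genes. Without beef tallow pig 3 or coconut oil pig 3, 89 and 69 genes passed, all 36 among them in each case. Without both of these pigs, an alternative chosen after seeing the data, 148 genes passed, 71 higher and 77 lower, again with all 36 among them, and the measure that asks for both fats then called 5 genes, HSPA8, BAG3, EGFR, BHMT2 and DPYS.

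**Figure D5:**
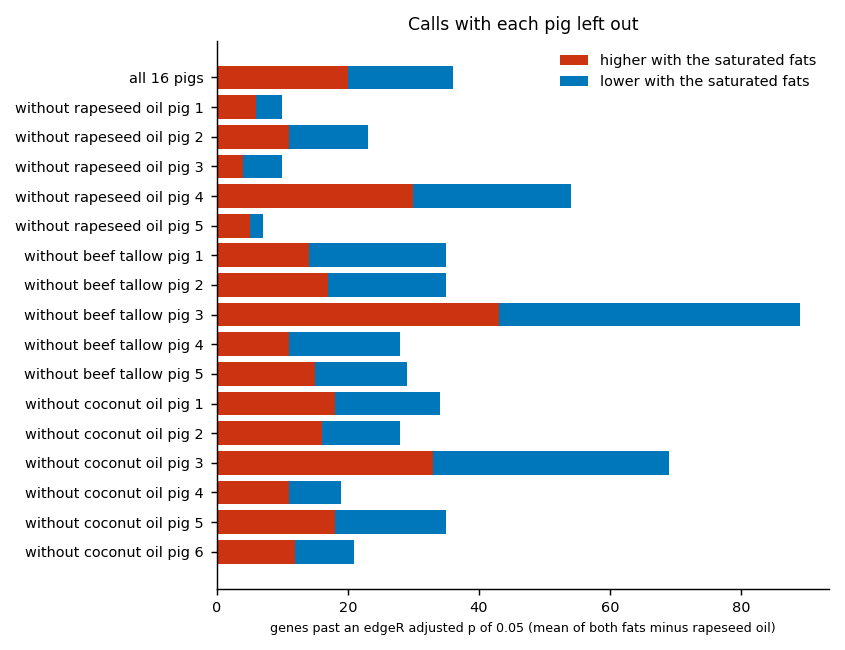
Number of genes past an edgeR adjusted p of 0.05 in the mean of both fats minus rapeseed oil (horizontal axis), with all 16 pigs and with each pig left out in turn, split into higher (red) and lower (blue). The count runs from 7 without rapeseed oil pig 5 to 89 without beef tallow pig 3.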

How the data were processed

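Liver RNA of 16 pigs was analysed, with 1 library per pig. The authors trimmed 3′ mRNA reads, mapped them to the pig genome by TopHat and assigned them to Ensembl genes by HTSeq-count, and the deposited values are raw counts of reads for 25880 genes, without normalization. Each file also holds 5 tallies of reads assigned to no gene, which were dropped from library sizes and tests. Genes with near-identical copies lose the reads that align to more than 1 place, so their values are uncertain. Of the gene identifiers, 14857 have a symbol. HSD3B1, RPS29, METTL1 and BHMT2 were named from the study's supplementary tables. Gene positions were taken by symbol from RefSeq, whose assembly is the one the authors used. Among 120 pairs of libraries, 0 were identical.

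All 16 pigs were fitted together without covariates with edgeR 4.0.16 (R 4.3.3) and its quasi-likelihood test, after TMM normalization and filterByExpr by diet (minimum count 10, minimum total count 15). The main contrast was the mean of groups B and C minus group R, and the contrasts of each fat and of both fats with each other came from the same fit. Benjamini-Hochberg adjustment ran over 6891 genes, and a gene passed at 0.05 whatever its fold change. The standard error is the log2 fold change divided by the square root of F, taken as positive. Levels are TMM-normalized CPM, except sums over lists, which use plain CPM. P-values measure the spread between the pigs of a diet, and no interval for counting error was computed. On simulated counts with these library sizes (6640 genes tested, 200 changed), 64.9% of 2-fold and 100% of 4-fold changes were recovered in the main contrast and 2.65% of calls were false. The measure that asks for both fats recovered 41.2% and 97.6%, with 0 false calls. False calls by this measure for genes moved by beef tallow alone or by coconut oil alone were not tested.

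The genes named are the 10 higher and 10 lower genes of smallest adjusted p, the 5 of largest fold change in each direction, those past the threshold in each gene list or else the 2 members of smallest p, and genes that earlier results name. The members and lists were chosen with earlier results of these data known, and any other gene named was chosen after its values were seen. A count of list members above the share among all genes is therefore no independent support. Of the genes the rule names, 2 are not reported on their own here, but stayed in the fits and lists. Alternatives were DESeq2 1.42.0, limma 3.58.1 (voom), RLE normalization, no filter, a mean of at least 20 reads, sex, the share of reads with several alignments or the replicate number as a further term, thinning to 705669 reads, both fats as 1 group, and each pig left out.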

Additional observations from a re-analysis of the deposited data

Results flagged for a closer look

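The level of a gene in 1 pig stood far from the others of its diet, by Dixon's test at the 95% level, in 8 of 108 groups of pigs examined for the 36 genes, and chance alone marks about 1 group in 20. ENSSSCG00000024742 lay at 31.9 CPM in beef tallow pig 4, against 11.06 to 14.8 CPM in the rest of its group. POLR1G lay at 64.3 CPM in beef tallow pig 3, where the others reached 44.6 CPM. SNTB1 lay at 214 CPM in rapeseed oil pig 1, with the next at 109 CPM, and at 113 CPM in coconut oil pig 3, with the next at 48.9 CPM. BHMT2 lay at 119 CPM in coconut oil pig 3, with the next at 63.1 CPM. Rapeseed oil pig 2 was high in LYVE1, at 44.1 CPM with the next at 31.5 CPM, and in NOLC1, at 59.5 CPM with the next at 37.4 CPM. ABCB11 lay at 489 CPM in coconut oil pig 4, with the next at 426 CPM. The marked pigs were rapeseed oil 1 and 2, beef tallow 3 and 4, and coconut oil 3 and 4.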

How the results depend on the processing

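Each of the 36 genes kept its direction under every alternative that gave a value. For the mean of both fats (36 genes), RLE, voom, sex as a covariate, a mean of at least 20 reads and thinning left the count within 1.5 times. DESeq2 called 144 genes, 32 of them among the 36, no filter 101, the share of reads with several alignments as a covariate 13, and both fats as 1 group of 11 pigs 15. Leaving out 1 pig gave 7 to 89. For beef tallow (92 genes), the counts were 271 with DESeq2, 182 without a filter and 32 to 132 with 1 pig left out, with 36, 32, 34, 43 and 50 without rapeseed oil pig 1, 3 or 5 or beef tallow pig 4 or 5. For coconut oil (6 genes), they were 53 with DESeq2, 32 without a filter, 2 with sex and 2 with the share of reads with several alignments as a covariate, and 0 to 22 with 1 pig left out. For coconut oil against beef tallow (8 genes, all lower with coconut oil), they were 61, 42 and 4 (without coconut oil pig 3) to 15 (without beef tallow pig 2). For genes moved by both fats (1 gene), they were 4 with DESeq2, 4 without a filter, 4 after thinning, 3 where each fat passed its own adjusted threshold, 0 with the share of reads with several alignments and 0 to 3 with 1 pig left out. The difference between the sexes gave 20 genes without a filter and 0 to 3 with 1 pig left out. Without beef tallow pig 3 and coconut oil pig 3, chosen after seeing the data, the counts were 148, 156, 69, 3 and 5 in the same order. The cause of these moves was not tested.

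With the replicate block, the mean of both fats gave 19 genes, 16 of them among the 36, coconut oil against beef tallow 5 and genes moved by both fats 0. The 15 same-numbered pairs of pigs correlated between -0.25 and 0.145, with a median of 0.0461, and 2 of them were over 0.1. The 70 pairs of different number lay between -0.183 and 0.363, with a median of -0.0169 and 8 over 0.1. Such correlations cannot tell whether the numbers mark a pairing of the pigs. On simulated counts 2-fold changes were recovered less often than 4-fold ones, and recovery by read count was not tested.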
